A study of Mus musculus with 3 samples.

Results

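Gm21269 and Gm10619 are mouse long noncoding RNA genes that lie head to head on chromosome 7 and give rise to PIWI-interacting RNAs (piRNAs). Their small RNAs were taken as all reads of 24 to 33 nt that matched in full, and in the sense direction, a GENCODE transcript of either gene. By this rule 13405 distinct sequences belonged to them, 9655 to Gm21269 and 3750 to Gm10619, out of reads on 30515 GENCODE genes. No read matched both genes. The genes were chosen with their high read counts in these libraries known, so their levels and their ratio between libraries are given as a description.

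CD1 mice, which are outbred, gave 1 small RNA library each of mature sperm, of adult testis and of adult uterus. Sperm were collected from the cauda epididymis, where they are stored after leaving the testis, and were treated on ice with a detergent buffer that lyses somatic cells. With 1 library per source no difference has a replicate check, and no test was made. The 95% intervals given express counting error alone: PCR copies without molecular identifiers are not independent molecules.

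The sperm library held 15690722 reads, the testis library 23783785 and the uterus library 15876066, of which 71.7%, 98.0% and 11.6% were 24 to 33 nt long. As a check of the labels, the gonadal microRNA miR-202-5p had 2 sperm reads, 2492 testis reads and 0 uterus reads. The epithelial microRNA miR-200c-3p had 36061 sperm reads, 10 testis reads and 1385 uterus reads, and the stromal and muscle microRNA miR-199a-3p had 376, 687 and 458582. This epithelial microRNA was thus most abundant in the sperm library, and its part in the values below was not tested.

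Germ cells of the adult testis transcribe long single-stranded piRNA precursors during the pachytene stage of meiosis, and these are cut in the cytoplasm into piRNAs that are held by the PIWI proteins MILI and MIWI. The first base of a piRNA is usually U, read here as T. MIWI holds slightly longer piRNAs than MILI. Many pachytene precursors come as divergent pairs that start from a shared promoter bound by the transcription factor A-MYB.

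In GRCm38 the annotated start of Gm21269 is base 73816546 of the plus strand and that of Gm10619 is base 73816503 of the minus strand, with 42 bases between them. Gm21269 has 1 annotated transcript of 12456 nt in 4 exons, which spans chr7:73816546-73838898. Its first exon is 9486 nt long. Gm10619 has 3 transcripts that cover 5495 exonic bases within chr7:73781429-73816503. The transcripts share exons near the start and end either in a last exon of 1961 nt, which 1 of them lists in 2 pieces, or in one of 2694 nt that lies farther away. The RefSeq promoter window of Gm10619, 250 bases before to 50 bases after its start in GRCm38.p6, holds both starts and is shown for that reason. It is chr7:73816454-73816753, on the minus strand, with matches to the MYB core motif AACNG on either strand in capitals.

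Gm10619 promoter: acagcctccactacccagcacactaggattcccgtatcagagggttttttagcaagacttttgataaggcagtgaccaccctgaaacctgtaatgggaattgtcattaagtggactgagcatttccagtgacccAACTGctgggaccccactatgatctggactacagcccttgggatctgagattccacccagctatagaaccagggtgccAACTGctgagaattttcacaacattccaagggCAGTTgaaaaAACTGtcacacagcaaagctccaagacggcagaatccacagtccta

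The motif had 4 matches in this window. They began 116, 38 and 6 bases before the Gm10619 start and at its base 5, so that a pair of them fell between the starts of both genes. A match is a description of letters and not a site: 80.3% of 32851 RefSeq promoter windows of the same length held at least 1 match, and 11.8% held at least as many as this one. TATAAA, searched on both strands, had 0 matches here and occurred in 13.6% of windows.

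RefSeq places the start of Gm21269 elsewhere, at base 73825924, which is 9378 bases into the GENCODE transcript. Of the reads on Gm21269, 93.5% in sperm (93.1 to 93.9%) and 93.2% in testis (93.1 to 93.3%) ended before that base. The stretch before it makes up 75.3% of the transcript. The reads therefore lay mostly on the part that only the GENCODE model includes.

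The sequences that carry the values below come from the deposited reads, written 5′ to 3′ as DNA. The first set shares a single 5′ end at base 8498 of Gm21269 (chr7:73825043 on the plus strand), the leading end in testis. Bases after base 28 are in capitals, since the libraries differed in how far the reads ran.

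Gm21269 8498, 28 nt: tgggctgtttggcattgaagtgtagagc
Gm21269 8498, 29 nt: tgggctgtttggcattgaagtgtagagcC
Gm21269 8498, 30 nt: tgggctgtttggcattgaagtgtagagcCT
Gm21269 8498, 31 nt: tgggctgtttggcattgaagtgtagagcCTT

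The second set holds the leading sequences of sperm on Gm21269 that were rare in testis, and the third the leading sequences of Gm10619 in testis and in sperm. Bases 1 and 10, which are described for all reads further down, are in capitals.

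Gm21269 8860: TagaagaaaAagaggactttagccactgg
Gm21269 7967: TgggatgtcAtgcaactttgagccatgtt
Gm21269 719: TgggaatgaGgttcaggacacagggctca
Gm10619 2524: TaggattctAttgtggaggggcaatatat
Gm10619 1300: TttgaccacAaagtttgactgccaggagc
Gm10619 1509: TaaaaagatAggttggcactccctgaggga

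Reads of both genes were present in sperm, far more abundant in testis and close to absent from uterus. The level in sperm was 11.3-fold lower than in testis for Gm21269 and 10.3-fold lower for Gm10619. Gm21269 had 13566 sperm reads, 232419 testis reads and 12 uterus reads. These are 864.6 reads per 1000000 reads of the library (RPM) in sperm (850.1 to 879.3), 9772 RPM in testis (9732 to 9812) and 0.756 RPM in uterus (0.391 to 1.32). Gm10619 had 3134 sperm reads, 48722 testis reads and 0 uterus reads, or 199.7 RPM in sperm (192.8 to 206.9) and 2049 RPM in testis (2030 to 2067). A count of 0 in uterus, taken as at most 3 reads, allows up to 0.189 RPM.

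The uterus reads cannot be assigned to Gm21269 alone. All 12 fell within 81 bases of its first exon, from base 6048 to base 6128, and each matched at least 213 GENCODE genes. In sperm 97.9% and in testis 98.2% of Gm21269 reads matched no other gene, and all Gm10619 reads did so. These shares count GENCODE transcripts alone; matches elsewhere in the genome, as in introns or repeats, were not analysed here.

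Among all GENCODE genes Gm21269 had rank 2 in sperm and rank 1 in testis by reads of this length. It held 2.60% of all such reads on GENCODE genes in sperm and 11.2% in testis. Gm10619 ranked 9 in sperm and 10 in testis, with 0.5996% and 2.34%. Per exonic base, Gm21269 was the higher of the pair, with 69.4 RPM per 1000 bases in sperm and 785 in testis, against 36.3 and 373 for Gm10619. Gm21269 reads outnumbered Gm10619 reads by 4.33 times in sperm and by 4.77 times in testis.

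The ratio of sperm over testis was 0.0885 for Gm21269 (0.0869 to 0.0900), a log2 ratio of −3.50. For Gm10619 it was 0.0975 (0.0940 to 0.101), a log2 ratio of −3.36. The log2 ratio of Gm21269 minus that of Gm10619 was −0.14, and the intervals of the ratios did not overlap. This order turned round without the leading testis 5′ end of each gene, when the log2 ratios were −3.13 for Gm21269 and −3.28 for Gm10619. In bulk samples fewer cells of a type and less RNA per cell cannot be told apart, and testis holds germ cells of all stages together with somatic cells.

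Other genes with many testis reads also had low ratios, which their choice by testis reads favours. Of 1046 GENCODE genes with at least 1000 testis reads of this length, 854 (81.6%) were at least 4-fold lower in sperm, and 1 (0.0956%) was at least 4-fold higher. A read that matched several genes counted for each, so that these genes can share reads and are not independent. Their median log2 ratio was −2.38, and the middle part of the distribution between its quartiles ran from −3.42 to −2.10. Both members were past 4-fold on the lower side, Gm21269 at rank 217 and Gm10619 at rank 289 from the lowest. With reads on GENCODE genes as the denominator every log2 ratio loses a shift of −1.39. Gm21269 then stood at −2.11, still past 4-fold, and Gm10619 at −1.97, no longer past it, and 275 genes (26.3%) were at least 4-fold lower. With a minimum of 100 testis reads 52.3% of genes were lower and 5.07% higher, and at a threshold of 2-fold 99.3% were lower.

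**Figure D1:**
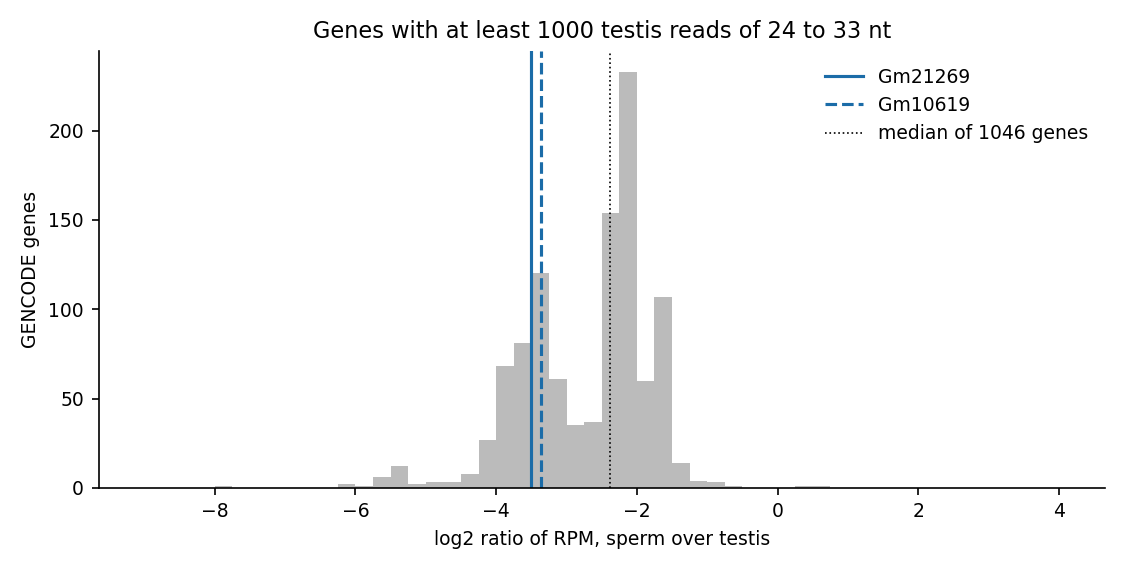
Histogram of the log2 ratio of RPM, sperm over testis, for 1046 GENCODE genes with at least 1000 testis reads of 24 to 33 nt; the vertical axis counts genes. The solid line marks Gm21269 at −3.50, the dashed line Gm10619 at −3.36 and the dotted line the median of −2.38.

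The 3 other noncoding genes with most testis reads had log2 ratios of −3.45 for Gm49794, −1.97 for Gm5878 and −3.15 for 1700001L05Rik. Gm49794 had 9807 reads in sperm and 162961 in testis, Gm5878 had 13085 and 77790, and 1700001L05Rik had 4748 and 64019. The log2 ratio of both members together was −3.47, and the 5 genes nearest to it over these 2 libraries were Shcbp1, Rps27a, Vmn1r233, Gm49793 and Pfas, all at −3.47. Shcbp1, Vmn1r233 and Pfas had 3771, 3807 and 3814 testis reads and also 65, 54 and 61 in uterus. Their counts were nearly equal, and whether they come from the same reads, which count for each gene matched, was not tested. Gm49793, a noncoding gene with 559 reads in sperm and 9400 in testis, had 0 in uterus.

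Reads were matched to spliced transcripts, so that each lay on an exon or a junction by construction and introns were not analysed here. Read density differed between exons. The first exon of Gm21269 held 12869 reads in sperm and 219652 in testis, which is 1357 and 23155 reads per 1000 bases. The last exon, of 2702 nt, held 448 and 10235 reads, or 165.8 and 3788 per 1000 bases. The short exon of 125 nt before it held 4 and 29. Reads across splice junctions numbered 48 in sperm and 764 in testis between the first exons, and 22 and 361 between the last ones. The junction just before the exon of 125 nt had only 2 and 4.

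On Gm10619 the exon of 104 nt near the middle was the densest, with 283 reads in sperm and 5956 in testis, or 2721 and 57269 reads per 1000 bases. The last exon of 1961 nt held 1575 and 19511 reads, and the more distant last exon of 2694 nt held 896 and 19260. Both alternative last exons thus held reads of this size. The exon of 64 nt ran against the rest, with 113 reads in sperm and 83 in testis. Few reads crossed the splice junctions of Gm10619. In the transcript with 4 exons the junction after the first exon had 1 read in sperm and 1 in testis. The junctions on either side of the exon of 104 nt had 0 in each library. In the transcript with 6 exons no junction had more than 1 read in either library. The boundary between the 2 pieces of the last exon, where so listed, had 81 and 1859.

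**Figure D2:**
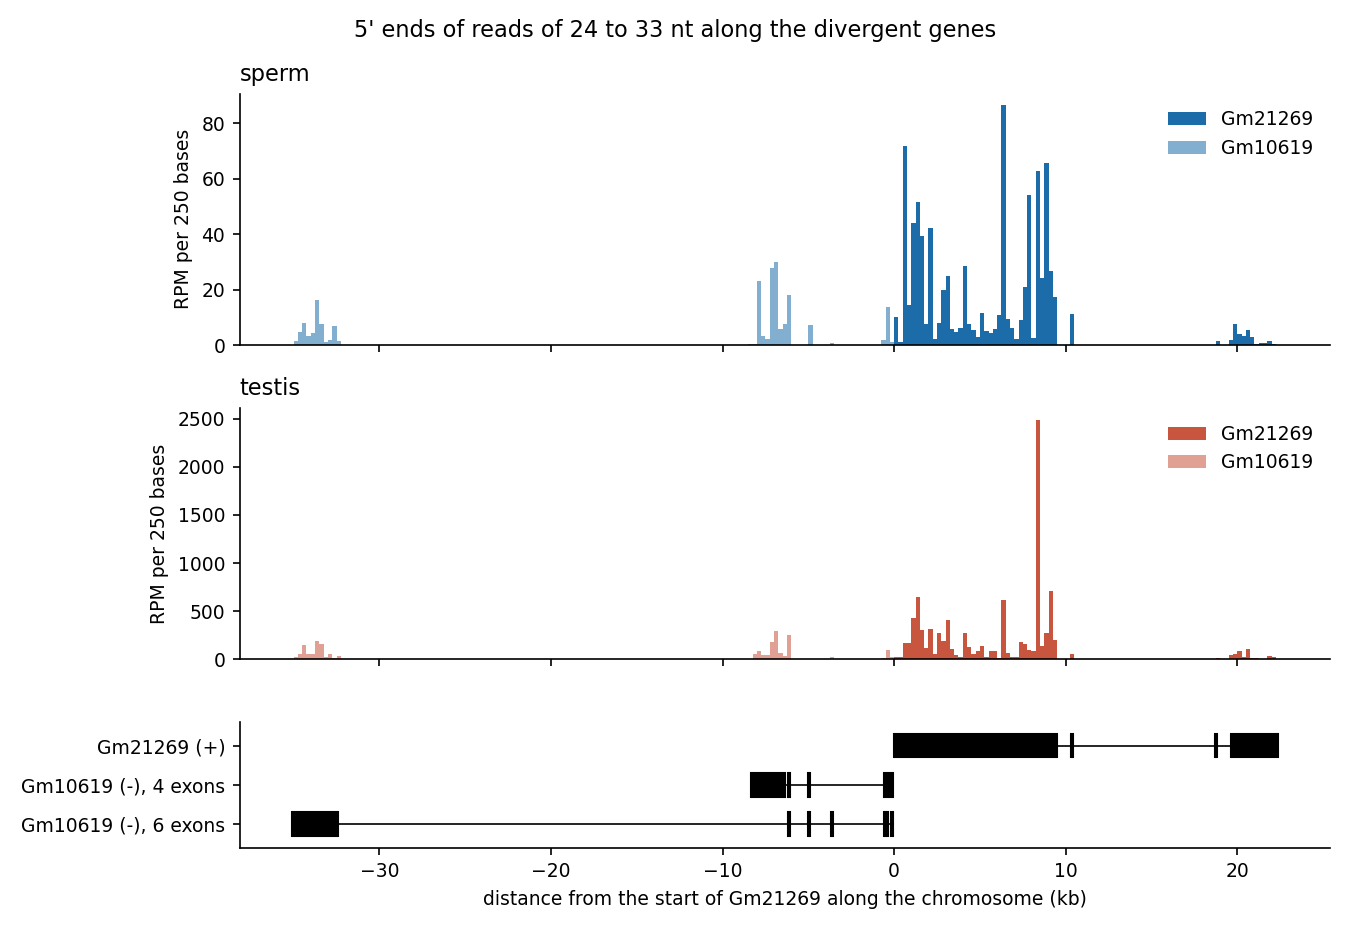
Reads by position of their 5′ end along the chromosome, in sperm (top) and testis (middle), as RPM per 250 bases, with annotated exons as boxes (bottom); the horizontal axis is the distance from the Gm21269 start in kb. Signal runs to the right over the 9486 nt first exon of Gm21269 and to the left over the exons of Gm10619, and the highest testis bar holds the end at base 8498, which had 2437 RPM by itself.

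In windows of 500 nt along Gm21269 the balance between the libraries varied. The window from base 8001 to 8500 held 7.55% of the gene's reads in sperm and 26.3% in testis, with a ratio of 0.0254. The single end at base 8498 gave 434 of its 1024 sperm reads and 57957 of its 61181 testis reads. Windows from base 501 to 1000 and from 7501 to 8000 were the least depleted among those with over 1000 sperm reads, at ratios of 0.2499 and 0.292. The window from base 11501 to 12000 had only 26 sperm and 91 testis reads. On the Gm10619 transcript with 4 exons the windows of 500 nt lay between 0.0862 and 0.209.

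Reads began at a limited set of bases. Gm21269 had 3341 different 5′ ends, on 26.8% of its positions, and Gm10619 had 1356 on 24.7%. In Gm21269 the 21 leading ends in sperm and the 13 leading ends in testis held 50% of the reads. In Gm10619 it was 17 in each. The 10 leading ends held 34.3% of Gm21269 reads in sperm and 46.7% in testis, and 3 of the 10 were shared. For Gm10619 they held 37.7% and 38.7%, with 3 shared.

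**Figure D3:**
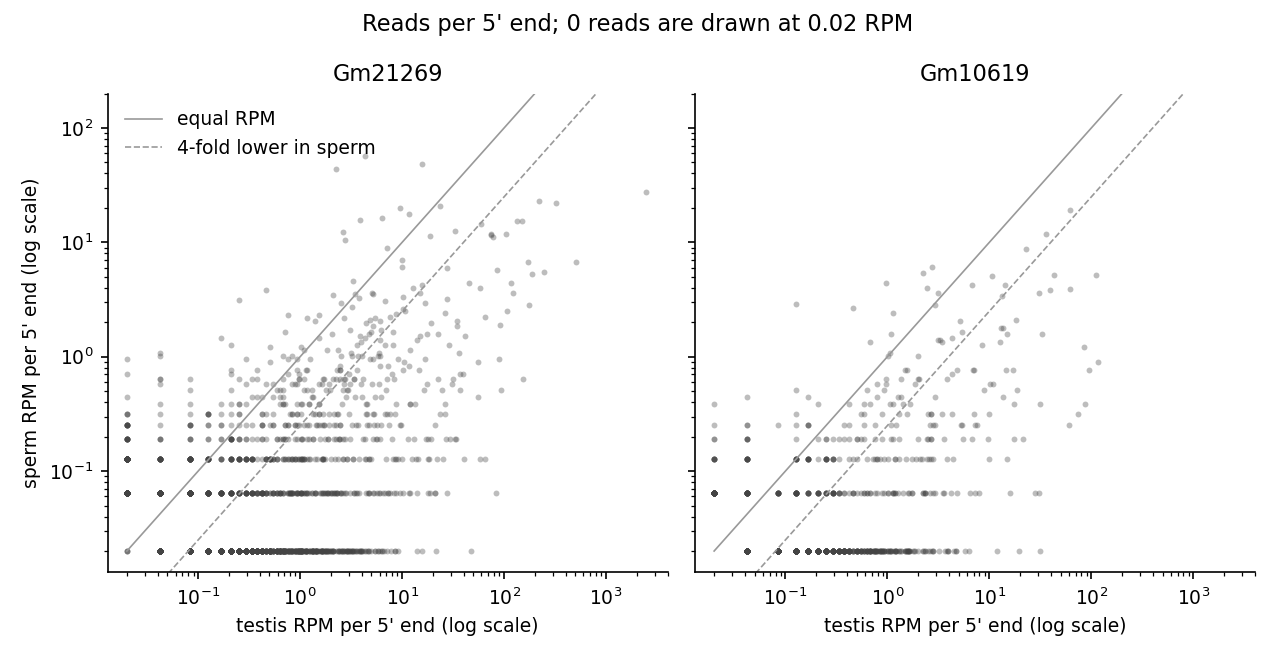
Each point is a 5′ end, with its testis RPM on the horizontal and its sperm RPM on the vertical axis, both on log scales, and 0 reads drawn at 0.02 RPM. Most abundant testis ends lie below the dashed line of 4-fold lower values in sperm, while some ends of both genes lie above the solid line of equality.

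The end at base 8498 of Gm21269 stood apart in testis. It gave 434 reads in sperm and 57957 in testis, which is 3.20% and 24.9% of the gene's reads. Its ratio of sperm over testis was 0.0114 (0.0103 to 0.0125), a log2 ratio of −6.46. Without this end, left out after the values were seen, the gene's log2 ratio was −3.13.

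The reads from that end also differed in length, as the first set of sequences shows. The 28 nt form had 290 sperm and 1159 testis reads, and the 29 nt form 56 and 7422. The 30 nt form had 2 and 23015, and the 31 nt form 2 and 23245. In sperm the 28 nt form made up 66.8% of the reads from this end, whereas in testis the 30 and 31 nt forms made up 39.7% and 40.1%. The mean length was 27.8 nt in sperm and 30.3 nt in testis. The transcript has T at bases 30 and 31 of this end, so a 29 nt read with added T matches the longer forms in full. Such reads cannot be told apart here, and their part in the length difference was not tested. At all other ends of the gene, reads with a differing last base made up 9.94% in sperm and 21.7% in testis.

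Other leading testis ends did not all follow this pattern. At base 9036, with 106 reads in sperm and 11984 in testis, the mean length was 28.2 nt in sperm and 29.01 nt in testis. At base 1253, with 363 and 5272 reads, it was 27.1 and 28.7 nt. At base 6291, with 347 and 7644 reads, sperm reads were the longer, at 31.5 and 30.1 nt. At base 1137, with 86 and 5812 reads, they were 31.03 and 31.2 nt.

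Over all ends of Gm21269 with at least 20 reads in each library, 91 in number, sperm reads were shorter on average at 45, longer at 45 and equal at 1, and the median difference was 0. Over 33 such ends of Gm10619 they were shorter at 19 and longer at 14, with a median difference of −0.07 nt.

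**Figure D4:**
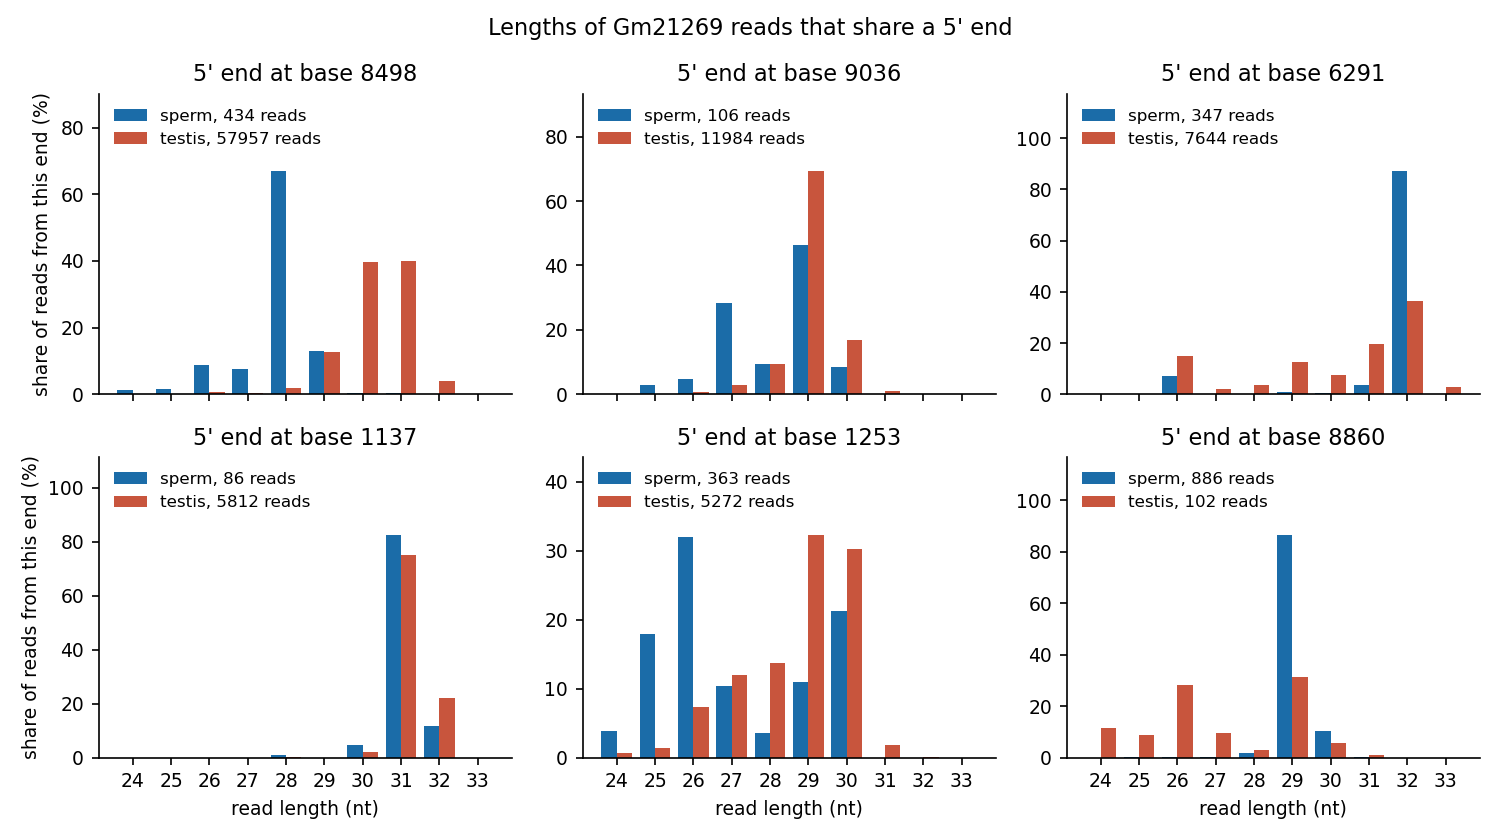
Length distribution of reads that share a 5′ end of Gm21269, for the 5 ends with most testis reads and the end with most sperm reads; the vertical axis is the share of the reads from that end. At base 8498 sperm reads peak at 28 nt and testis reads at 30 and 31 nt, while at base 1137 both peak at 31 nt. Lengths at base 8498 include any added T that matches the transcript.

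A few ends were more frequent in sperm. The end at base 8860 had 886 sperm reads and 102 testis reads, a ratio of 13.2 (10.7 to 16.3). At base 7967 there were 685 and 54, a ratio of 19.2 (14.6 to 25.9), and at base 719 there were 758 and 376, a ratio of 3.06 (2.70 to 3.47). Together these are the 3 leading ends of sperm.

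Single sequences differed more than their ends. The 29 nt sequence from base 8860 had 766 reads in sperm and 32 in testis, 36.3 times as frequent in sperm (25.5 to 53.4). The one from base 7967 had 570 and 34, a ratio of 25.4 (17.97 to 37.1). The one from base 719 had 289 and 3, a ratio of 146 with a wide interval of 49.5 to 712.2. They lie at chr7:73825405-73825433, chr7:73824512-73824540 and chr7:73817264-73817292 on the plus strand, all in the first exon, and each matched no other gene.

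On Gm10619 the leading testis sequence, 29 nt from base 2524 of the transcript with 6 exons (chr7:73782164-73782192, minus strand, last exon), had 1 read in sperm and 1880 in testis. The second, 29 nt from base 1300 of the transcript with 4 exons (chr7:73809590-73809618, minus strand), had 60 and 1833. The leading sperm sequence, 30 nt from base 1509 (chr7:73809380-73809409, minus strand), had 192 and 1070, a ratio of 0.272 (0.232 to 0.317). Some ends of Gm10619 were more frequent in sperm too. Its ends at base 571, with 96 sperm and 65 testis reads, and at base 657, with 85 and 53, had the highest ratios among its named ends, 2.24 (1.62 to 3.12) and 2.43 (1.71 to 3.49). Rarer ends, picked after their values were seen, had higher ratios: base 1258 had 45 sperm and 3 testis reads, for a ratio of 22.7 (7.30 to 114.4), and base 653 had 42 and 11, a ratio of 5.79 (2.93 to 12.5). Among ends with at least 20 sperm reads, a choice that favours sperm, 23 of 97 on Gm21269 (23.7%) and 10 of 36 on Gm10619 (27.8%) had a higher level in sperm than in testis.

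Of 278 Gm21269 sequences with at least 100 testis reads, 257 (92.4%) were at least 4-fold lower in sperm, 0 were at least 4-fold higher and 84 had 0 sperm reads. For Gm10619 it was 81 of 90 (90.0%), 0 and 28. Among all 26293 sequences of this length with at least 100 testis reads the shares were 91.9% lower and 0.384% higher, so that the members were near this background. Of the 19 Gm21269 sequences with at least 100 sperm reads, 7 (36.8%) had a 4-fold or higher level in sperm and 3 (15.8%) a 4-fold or lower one, where all 4064 such sequences gave 68.4% and 9.33%. Gm10619 had 1 such sequence, which was neither. Each of these sets was picked on counts of 1 of the libraries compared.

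The sequences with 0 sperm reads included abundant ones. The 32 nt form from base 8498 had 0 reads in sperm and 2307 in testis, at least 507-fold lower in sperm when 0 is taken as 3 reads. A 29 nt sequence from base 3422 had 0 and 1259, and a 31 nt sequence from base 9439 had 0 and 708. On Gm10619 a 31 nt sequence from base 1646 of the transcript with 6 exons had 0 and 922, at least 203-fold lower.

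At equal depth sperm held somewhat fewer distinct sequences than testis. Gm21269 had 2061 distinct sequences in sperm, against 2135 in testis when thinned to the same number of reads. Gm10619 had 711, against 814. Of the sperm sequences 71.7% for Gm21269 and 72.2% for Gm10619 were also seen in testis, and these were 16.3% and 14.4% of the testis sequences. The shared sequences held 92.8% of sperm reads and 75.6% of testis reads of Gm21269.

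Both genes gave reads of 29 to 31 nt in the main, and counted by reads the shorter ones had a larger share in sperm. For Gm21269 the share of 29 to 31 nt was 64.7% in sperm and 73.5% in testis, and for Gm10619 it was 65.3% and 73.7%. The most frequent length was 29 nt in sperm and 30 nt in testis for Gm21269, and 30 nt in both for Gm10619. Reads of 31 nt made up 9.43% in sperm and 21.01% in testis for Gm21269, and 9.80% and 15.3% for Gm10619. Reads of 24 to 28 nt made up 31.6% and 21.7% for Gm21269, and 29.7% and 20.01% for Gm10619. Counted by distinct sequence the direction turned for both: 29 to 31 nt then made up 50.8% in sperm and 45.5% in testis for Gm21269, and 55.0% and 49.9% for Gm10619.

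The ratio of sperm over testis accordingly depended on length. It was 0.129 for Gm21269 reads of 24 to 28 nt and 0.0779 for those of 29 to 31 nt, and 0.145 and 0.0864 for Gm10619. Without the end at base 8498 the share of 29 to 31 nt of Gm21269 was 66.4% in sperm and 67.2% in testis. The shares of the libraries were then closer to each other than with it. The deposited sperm library held fewer reads of 24 to 33 nt in all, and no source used here states which sizes of RNA were selected for each library.

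**Figure D5:**
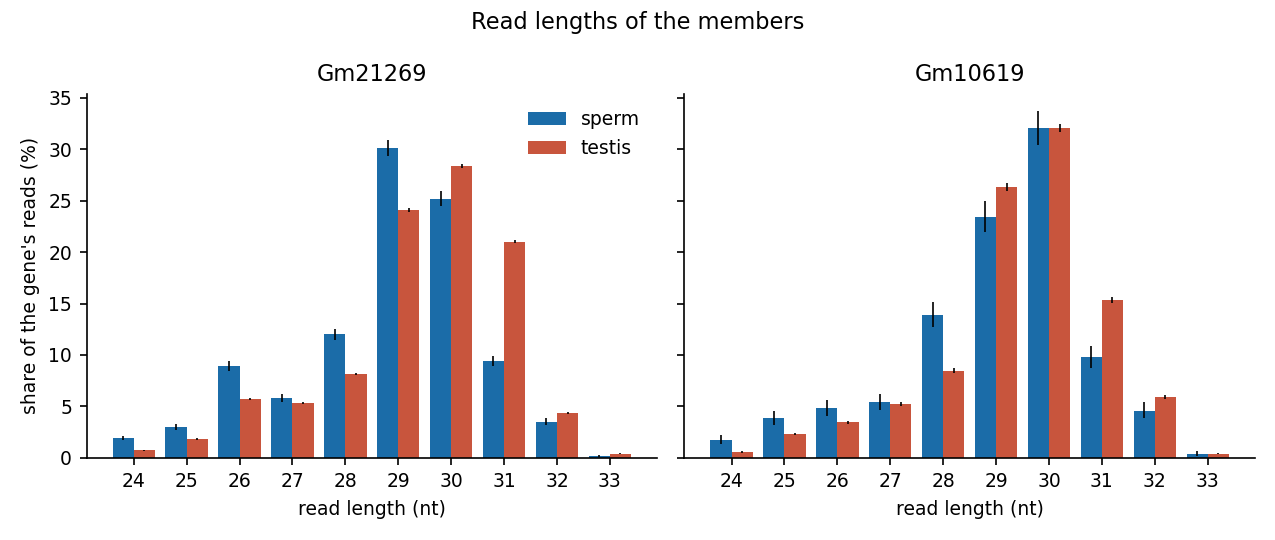
Share of each gene's reads at each length from 24 to 33 nt, in sperm (left bar of each pair) and testis (right bar), with exact 95% binomial intervals for counting error. Reads of 24 to 28 nt take a larger share in sperm, and the excess of testis over sperm is largest at 31 nt.

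Nearly all reads began with T. For Gm21269 T was base 1 in 92.9% of reads in sperm (92.5 to 93.3%) and 95.6% in testis (95.5 to 95.6%), against 26.999% of the bases of the transcript. For Gm10619 it was 94.99% (94.2 to 95.7%) and 94.2% (94.0 to 94.4%), against 26.9% of the bases of its transcript with 4 exons. Counted by distinct sequence the shares were lower, 82.05% in sperm and 72.0% in testis for Gm21269, and 85.2% and 73.1% for Gm10619. Abundant sequences thus began with T more often than rare ones.

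Base 10 had no such preference in Gm21269. A stood there in 28.1% of reads in sperm (27.4 to 28.9%) and 20.96% in testis (20.8 to 21.1%), where the transcript had 25.05%. Without the end at base 8498, whose base 10 is T, the shares were 29.1% and 27.9%. In Gm10619 A stood at base 10 in 34.1% of reads in sperm (32.4 to 35.8%) and 39.0% in testis (38.6 to 39.5%), where the transcript had 27.7%. By distinct sequence these were 31.5% and 32.8%.

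A RefSeq microRNA hairpin, Mir7234, lies inside the first exon of Gm21269, at chr7:73819590-73819641 on the plus strand, bases 3045 to 3096 of the transcript. Reads within it had the lengths of piRNAs. There were 134 in sperm, 4099 in testis and 0 in uterus, of which 115 in sperm and 3765 in testis were 29 to 31 nt long and 1 and 12 were 20 to 24 nt. No read began at the first base of either annotated mature arm. The leading read ran from base 3067 to the last base of the hairpin, with 39 reads in sperm and 3002 in testis. Its last 23 bases, in capitals, have the letters of the annotated miR-7234-3p, whose seed (bases 2 to 8) is in capitals in the second line.

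Gm21269 3067: taggtagAAACGTCTTTCTAGGGTAGAAGG
miR-7234-3p: aAACGUCUuucuaggguagaagg

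The leading other noncoding genes were measured in the same way, each on its transcript with most testis reads. In Gm49794, Gm5878 and 1700001L05Rik T was base 1 in 90.5%, 95.3% and 65.9% of reads in sperm and in 92.5%, 94.0% and 89.5% in testis. Reads of 29 to 31 nt made up 58.2%, 83.8% and 67.9% in sperm and 61.9%, 82.7% and 63.3% in testis; the divergent pair had 64.7% and 65.3% in sperm and 73.5% and 73.7% in testis. A stood at base 10 of 28.6%, 75.9% and 14.1% of their reads in sperm and 27.7%, 42.1% and 15.5% in testis. The leading end was taken in each library by itself, so that it can differ between them. It took 16.1%, 33.2% and 20.7% of their reads in sperm and 24.6%, 16.6% and 5.22% in testis. Gm21269 had 6.53% in sperm, from base 8860, and 24.9% in testis, from base 8498, and Gm10619 had 9.60% and 5.68%.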

How the data were processed

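Small RNA was sequenced from sperm, testis and uterus of CD1 mice, 1 library each. Per the labels' protocols, adapters were ligated to small RNA, which was reverse transcribed, amplified by PCR and sequenced. Each deposited file pairs every distinct sequence with its count of reads, a whole number that shows no normalization by the authors. Build mm9 appears in the submitters' processing notes; trimming, size selection and tools are, in the sources used here, not given. A last line without sequence in the sperm and the testis table was left out.

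Reads of 24 to 33 nt were matched in full and in sense to GENCODE M21 transcripts (GRCm38; no coordinate was converted), and reads of several genes counted for each. RefSeq sequences are of GRCm38.p6. Members and lists were chosen with earlier results of these data known. With 1 library per group no test was made. RPM have exact Poisson, shares exact Clopper-Pearson and ratios conditional exact binomial 95% intervals. A count of 0 was taken as 3 counts for a bound, or 0.191 RPM for sperm, 0.126 for testis and 0.189 for uterus. For each gene the text names sequences and ends from the 5 leading in each library, the 3 highest and 3 lowest ratios among sequences with at least 100 testis reads, the 3 leading other noncoding genes and the 5 genes nearest in ratio; sequences with 0 sperm reads are from the lowest ratios. Positions count from 1 at the transcript's start. Alternatives changed 1 choice at a time: the length window, matching, single-read sequences, distinct sequences, denominators, thresholds and the motif. Those with a mismatch at the last base and those without the leading 5′ end were added after the data were seen. Matching and ratios were tested on simulated data. Scripts ran in Python 3.11.15 with numba 0.67.0, scipy 1.17.1, pandas 2.3.3, numpy 2.4.6 and matplotlib 3.10.9.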

Additional observations from a re-analysis of the deposited data

Results flagged for a closer look

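Reads outside the sense matches of 24 to 33 nt were above the uterus library, the source without male germ cells, in all the classes that follow, and are listed here for that reason.

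Reads antisense to Gm21269 came to 296 for sperm, 1495 for testis and 8 for uterus, and reads antisense to Gm10619 numbered 23, 158 and 0. They were 2.14% of all reads of this length on Gm21269 in sperm and 0.639% in testis, and 0.729% and 0.323% on Gm10619. In sperm 63.5% and in testis 80.5% of the reads antisense to Gm21269 matched no GENCODE gene in sense. In testis 79.8% of them began with T and 79.7% had A at base 10. A single 5′ end, described next, gave 52.8% of these testis reads, and its reads have T at base 1 and A at base 10. The shares without that end were not computed. For reads antisense to Gm10619 in testis the shares were 53.2% and 62.7%.

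In testis the antisense reads of Gm21269 were concentrated at 1 end. The antisense 5′ end at base 982 of Gm21269 (chr7:73817527) gave 76 reads in sperm and 789 in testis, which is 25.7% (20.8 to 31.05%) of the gene's antisense reads in sperm and 52.8% (50.2 to 55.3%) in testis. The leading antisense end of Gm10619, at base 494, held 6 of 23 reads in sperm and 32 of 158 in testis. As background, reads of opposite strands whose 5′ ends overlap by 10 bases are the mark of the cycle in which piRNAs guide the cutting of a complementary RNA. A sense 5′ end at that overlap, base 973, gave 6 reads in sperm and 209 in testis. The leading read of each strand is shown, with the 10 shared bases in capitals.

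antisense, 982: TCCTGTTGTAactgtgaagataatgatggt
sense, 973: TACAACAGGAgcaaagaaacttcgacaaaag

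These reads had 45 and 0 counts in sperm and 475 and 83 in testis. Over overlaps of 1 to 25 bases in testis, 52.0% of all pairs of antisense and sense reads of Gm21269 overlapped by 10 bases, and 35.1% without the end at base 982. Of 128 antisense 5′ ends, 87 had a sense 5′ end at 10 bases, and 24 to 56 had one at the other overlaps. For Gm10619 10 bases was not the leading overlap by pairs: 973 pairs (5.67%) overlapped by 10 bases, against 1987 by 23, 1350 by 25, 1307 by 16 and 1260 by 20. By ends, 17 of its 29 antisense ends had a partner at 10 bases and 6 to 12 at the other overlaps.

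Reads that matched up to a differing last base numbered 1456 in sperm and 49611 in testis for Gm21269, and 368 and 6548 for Gm10619, with 0 in uterus. They were 9.69% of exact and such reads together in sperm (9.22 to 10.2%) and 17.6% in testis (17.5 to 17.7%) for Gm21269, and 10.5% and 11.8% for Gm10619. The last base was T in 87.6% of them in sperm and 89.7% in testis for Gm21269, and in 89.4% and 86.2% for Gm10619. In Gm49794, Gm5878 and 1700001L05Rik such reads were 14.1%, 12.6% and 11.1% in sperm and 16.7%, 15.5% and 15.7% in testis. Their last base was T in 88.8%, 93.0% and 87.3% in sperm and 90.3%, 90.5% and 90.3% in testis. In testis the Gm21269 reads of this kind were spread over 1670 start sequences, the leading one with 8.04%. No share is given for the reads from base 8498, since the transcript has T at bases 30 to 32 of that end and an added T there matches in full. Those reads are within the Gm21269 shares above. At all other ends of Gm21269 the share was 9.94% in sperm (9.46 to 10.4%) and 21.7% in testis (21.5 to 21.9%). The leading read of this kind is the 29 nt sequence from base 9036 with 1 added T, in capitals, which had 17 reads in sperm and 3211 in testis, where the 29 nt sequence itself had 49 and 8289.

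Gm21269 9036: ttggaaagagcaaaccatgatctggggtaT

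Sense reads of 34 to 44 nt numbered 35 in sperm and 414 in testis for Gm21269, and 12 and 66 for Gm10619, with 0 in uterus. In testis 93.2% and 92.4% of them began with T.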

How the results depend on the processing

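No paired analysis was possible because each group had 1 library. Of 134 levels, shares and ratios under other settings 45 stayed within the counting interval of the main value and 89 moved beyond it. A level moves by construction when the denominator changes, the length window narrows or more mismatches are allowed. Levels and shares cannot change sign. The log2 ratios could, and that of both genes stayed below 0 under each setting run. The order of some values did turn. With distinct sequences the length shares of sperm and testis changed order, and without the leading ends the log2 ratios of the genes did so. Values are given for Gm21269 in sperm and testis and then Gm10619 in sperm and testis unless named. The leading window is that of 500 nt with most testis reads, as a share of the gene's reads (main values 7.55%, 26.3%, 17.8% and 20.1%).

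With reads of 26 to 31 nt the levels were 790.2, 9055, 178.6 and 1861 RPM, the share of 29 to 31 nt was 70.8%, 79.3%, 73.0% and 81.1%, and A at base 10 was 28.99%, 20.7%, 36.3% and 41.3%. The leading window held 27.3% in testis for Gm21269, and 15.3% in sperm and 17.9% in testis for Gm10619. With reads that match no other gene Gm21269 had 846.8 RPM in sperm and 9597 in testis, 73.2% of 29 to 31 nt in testis, A at base 10 in 27.3% and 19.6%, and 26.8% in the leading window in testis.

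With 1 substitution allowed the levels were 986.4, 12315, 230.01 and 2404 RPM. The share of 29 to 31 nt was 65.7% for Gm21269 and 67.6% for Gm10619 in sperm. In testis T at base 1 was 94.97% for Gm21269 and 93.9% for Gm10619, A at base 10 was 21.4% and 38.6%, and the leading window held 22.2% and 19.7%. The log2 ratio of Gm21269 was −3.64. With a mismatch allowed at the last base the levels were 957.4, 11858, 223.2 and 2324 RPM.

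With sequences of at least 2 reads the levels were 799.6, 9603, 176.9 and 1982 RPM, the share of 29 to 31 nt was 66.3%, 74.1%, 67.4% and 74.7%, and T at base 1 was 94.2%, 96.2%, 97.2% and 95.3%. The leading window of Gm21269 held 26.7% in testis, and the log2 ratios were −3.59 and −3.49 for Gm10619. With distinct sequences in place of reads the share of 29 to 31 nt was 50.8%, 45.5%, 55.0% and 49.9%, so that sperm then exceeded testis; the cause was not tested. T at base 1 was 82.05%, 72.0%, 85.2% and 73.1%, and A at base 10 was 27.4%, 29.98%, 31.5% and 32.8%. The leading window held 3.11% in sperm and 3.24% in testis for Gm21269, and 11.8% in testis for Gm10619.

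Per 1000000 reads of 24 to 33 nt the levels were 1205, 9971, 278.4 and 2090.3, with log2 ratios of −3.05 for Gm21269 and −2.91 for Gm10619. Per 1000000 such reads on GENCODE genes they were 25954, 111666, 5996 and 23409, with −2.11 and −1.97. Without the leading 5′ end Gm21269 had 66.4% of 29 to 31 nt in sperm and 67.2% in testis, T at base 1 in 94.1% in testis, A at base 10 in 29.1% and 27.9%, and a log2 ratio of −3.13. Gm10619 without its leading end had T at base 1 in 93.8% and A at base 10 in 35.4% in testis, and a log2 ratio of −3.28.

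Of all genes 1577 of 3018 were at least 4-fold lower with a minimum of 100 testis reads, 1039 of 1046 were at least 2-fold lower against 854 at 4-fold, and 275 with reads on GENCODE genes as the denominator. The longer motif AACNGNC had 0 matches in the Gm21269 window and 2 in that of Gm10619. Of all windows 32.8% held at least 1 match to it and 6.86% at least 2. The Gm21269 window lies at the RefSeq start, inside the GENCODE transcript and away from the divergent starts. It held 2 matches to AACNG, and 51.3% of windows held at least as many. Sperm depth limits ratios of single sequences, since 1 sperm read is 0.0637 RPM.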

Other observations

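The most frequent substitution inside Gm21269 reads, away from their ends, was G2900A, counted from the transcript's first base (chr7:73819445). It occurred in 57 distinct sequences from 15 5′ ends. In sperm 0 reads carried it and 16 reads over that base matched in full, which allows a share of up to 18.8%. In testis 1139 reads carried it and 1983 matched in full, a share of 36.5% (34.8 to 38.2%). The labels do not say whether the libraries came from the same animals, and the cause was not tested. The leading sequence with it had 0 reads in sperm and 158 in testis and begins at base 2878.

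Gm21269 2878: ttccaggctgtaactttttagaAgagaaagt

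Shorter sense reads were less depleted in sperm for Gm21269 and not depleted for Gm10619. Their matches to other genes were not analysed. The RPM are per all reads of a library, of which 71.7% in sperm and 98.0% in testis were 24 to 33 nt long. All other lengths together thus had a larger share in the sperm library, and the part of this in the values was not tested. Reads of 18 to 23 nt from Gm21269 came to 673 for sperm, 1232 for testis and 56 for uterus, or 42.9, 51.8 and 3.53 RPM. For Gm10619 they numbered 224, 273 and 0, or 14.3 RPM in sperm and 11.5 RPM in testis. T was base 1 in 81.7% of these Gm21269 reads in sperm and 88.1% in testis.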
